A study of Macaca mulatta with 7 samples.

Results

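The genes described here encode 8 subunits of protein phosphatase 2A (PP2A), taken by symbol from the 18284 genes of the deposited gene table. They are the catalytic subunits PPP2CA and PPP2CB, the scaffold subunits PPP2R1A and PPP2R1B, and the B55 regulatory subunits PPP2R2A, PPP2R2B, PPP2R2C and PPP2R2D. The set was built around PPP2R2C, which was chosen by its mean sense count, lower in Maltreated than in Control libraries. Its difference between the groups is therefore given as a description, and no test of it counts as support. The other 7 genes came along as members of the same enzyme. Total RNA had been sequenced from sperm cells of rhesus macaques (Macaca mulatta), with 4 libraries labelled Control and 3 labelled Maltreated. Both groups were sperm purified on a PureSperm density gradient, extracted with TRIzol and sequenced by an Illumina protocol, and the animals were 5.67 to 5.92 years old. The labels do not say what the maltreatment was, and the series title speaks of early life stress. They give each library its own age but no animal identifier, so p values measure the spread between these libraries.

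PP2A is a major serine/threonine phosphatase of eukaryotic cells. A scaffold subunit holds a catalytic subunit and 1 regulatory subunit, and the regulatory subunit sets which substrates the enzyme meets. The B55 family is known for its part in the exit from mitosis, PPP2R2A and PPP2R2D being expressed in many tissues and PPP2R2B and PPP2R2C mainly in brain. In sperm, serine/threonine phosphatases are known to take part in the gain of motility. Mature sperm transcribe little, and their RNA is largely what remains from spermatid stages.

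Sense counts, that is reads on the strand of a gene, came to between 5316383 and 30715268 per library, and the deepest library was Maltreated 1. Markers of sperm were the most abundant of the marker lists, with all 10 detected and a summed level of 42499 to 58635 CPM in Control and 41595 to 94506 CPM in Maltreated libraries (CPM, the count scaled to a library of 1000000 counts after TMM scaling). The 12 leukocyte markers, all detected, set Control 4 (679 CPM) and Maltreated 3 (946 CPM) apart from the other 5 libraries at 13.4 to 58.1 CPM. The 12 neuronal markers, which bear on the brain subunits, summed to 14.3 to 76.2 CPM in Control and 19.6 to 59.7 CPM in Maltreated libraries. None of them was at 0 in every library, but some were near 0 outside the deepest library. SYN1 had 77 counts in Maltreated 1 and at most 3 elsewhere. MAP2 had the most counts of the list in every Control library and in Maltreated 2. Epithelial and accessory gland markers stood at 296 CPM in Control 2 and at most 32.8 CPM elsewhere.

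All 8 genes passed the filter on low counts, and none of the 7 other than PPP2R2C passed the test between the groups. In edgeR's quasi-likelihood test with Benjamini-Hochberg adjustment over 10719 genes the adjusted p was 0.999 for each of the 7, and 0% of all tested genes passed. The 7 genes had log2 fold changes (Maltreated minus Control) between -1.39 and 0.82. Of these 3 had a positive value, beside 48.7% of all genes tested, and 4 a negative value, beside 51.3%. Their median was -0.13, beside -0.02 over all genes tested. A lower level of a transcript in such bulk RNA may stand for fewer cells that hold it or for less of it per cell, and these cannot be told apart. The plot of sense CPM by library shows the values of the 8 genes.

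**Figure D1:**
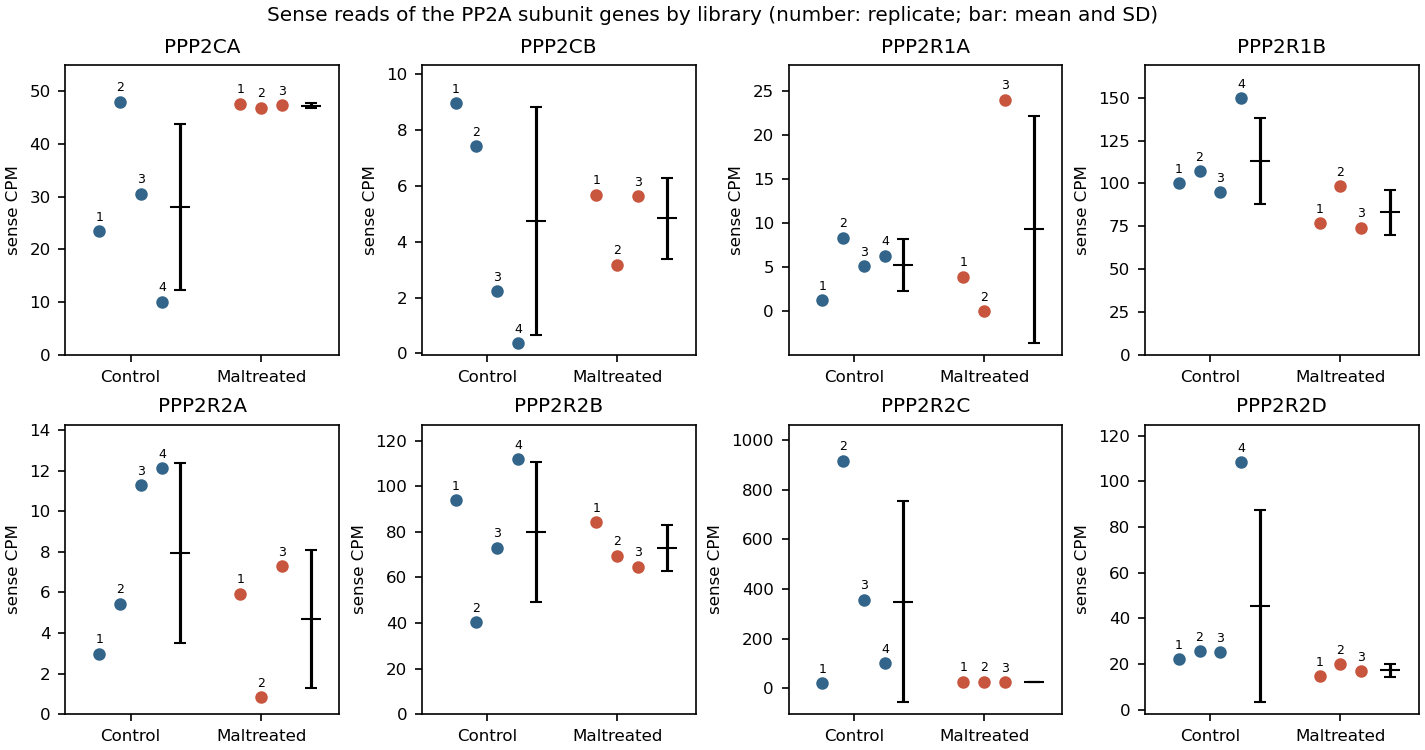
Sense CPM (y axis, linear) of each PP2A gene in the 4 Control (blue) and 3 Maltreated (red) libraries, numbered by replicate, with the group mean and SD in black. Among the 8 panels only PPP2R2D has Maltreated points that all lie below the Control points, and PPP2R2C reaches 918 CPM in Control 2 and 356 CPM in Control 3.

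PPP2CA, the major catalytic subunit in most tissues, lies on the minus strand of chromosome 5 (numbering and positions of the deposited files, 131676410 to 131706143). It had 220, 265, 179 and 54 sense counts across Control 1 to 4, which are 23.5, 48.0, 30.6 and 10.1 CPM. Across Maltreated 1 to 3 it had 1422, 280 and 546 counts, which are 47.6, 46.8 and 47.4 CPM. The 3 Maltreated libraries thus lay within 1 CPM of one another and above every Control library except Control 2, and the groups overlapped. The means were 28.0 ± 15.8 CPM (SD, n = 4) and 47.3 ± 0.409 CPM (SD, n = 3), and the log2 fold change was 0.75 ± 0.54 (SE). Control 4, with the lowest level, is also the Control library with the most leukocyte RNA, whose part in this value was not tested. Its log2 fold change was 0.46 with Control 4 left out.

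PPP2CB, the second catalytic subunit, lies on the minus strand of chromosome 8 (30766791 to 30793358). It was counted far less often, with 84, 41, 13 and 2 counts across Control 1 to 4 and 170, 19 and 65 across Maltreated 1 to 3. These are 8.96, 7.43, 2.22 and 0.373 CPM in Control and 5.69, 3.18 and 5.64 CPM in Maltreated libraries. The Maltreated values fell inside the Control range, and the log2 fold change was 0.03 ± 1.14 (SE). The proteins of PPP2CA and PPP2CB are near-identical, and the labels do not state how reads that match both genes were assigned, so the split between them is uncertain.

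The exons of PPP2CA were covered very unevenly. Exons 4 to 6 of 7, which are 368 of 2453 exon bases, held between 61.1 and 97.5% of its sense counts in the 7 libraries, with a median of 91.1%. The lowest share was that of Control 4, followed by 75.8% in Maltreated 3, where exons 1 to 3 had 50, 30 and 40 counts. These are also the 2 libraries with the most leukocyte RNA, whose part in the shares was not tested. Exon 5, with 161 bases, held 39.7 to 48.2% in the 6 libraries other than Control 4 and was their most counted exon. The last exon, with 1385 bases, had only 6, 4 and 8 counts in Control 1 to 3 and 65, 2 and 12 across Maltreated 1 to 3. In Control 4 it had 20 counts and was the most counted exon. Per kilobase, exon 5 stood at 63.0 to 140 CPM in those 6 libraries and the last exon at 0.242 to 1.57 CPM. The counts of PPP2CA were thus mostly counts of 3 short exons. PPP2CB has exons of the same length as exons 2 to 6 of PPP2CA, in the same order. In Maltreated 1, the deepest library, exons 4, 5 and 6 had 33, 38 and 34 counts in PPP2CB beside 12 and 18 on exons 2 and 3, and in PPP2CA they had 261, 603 and 398 beside 50 and 20.

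**Figure D2:**
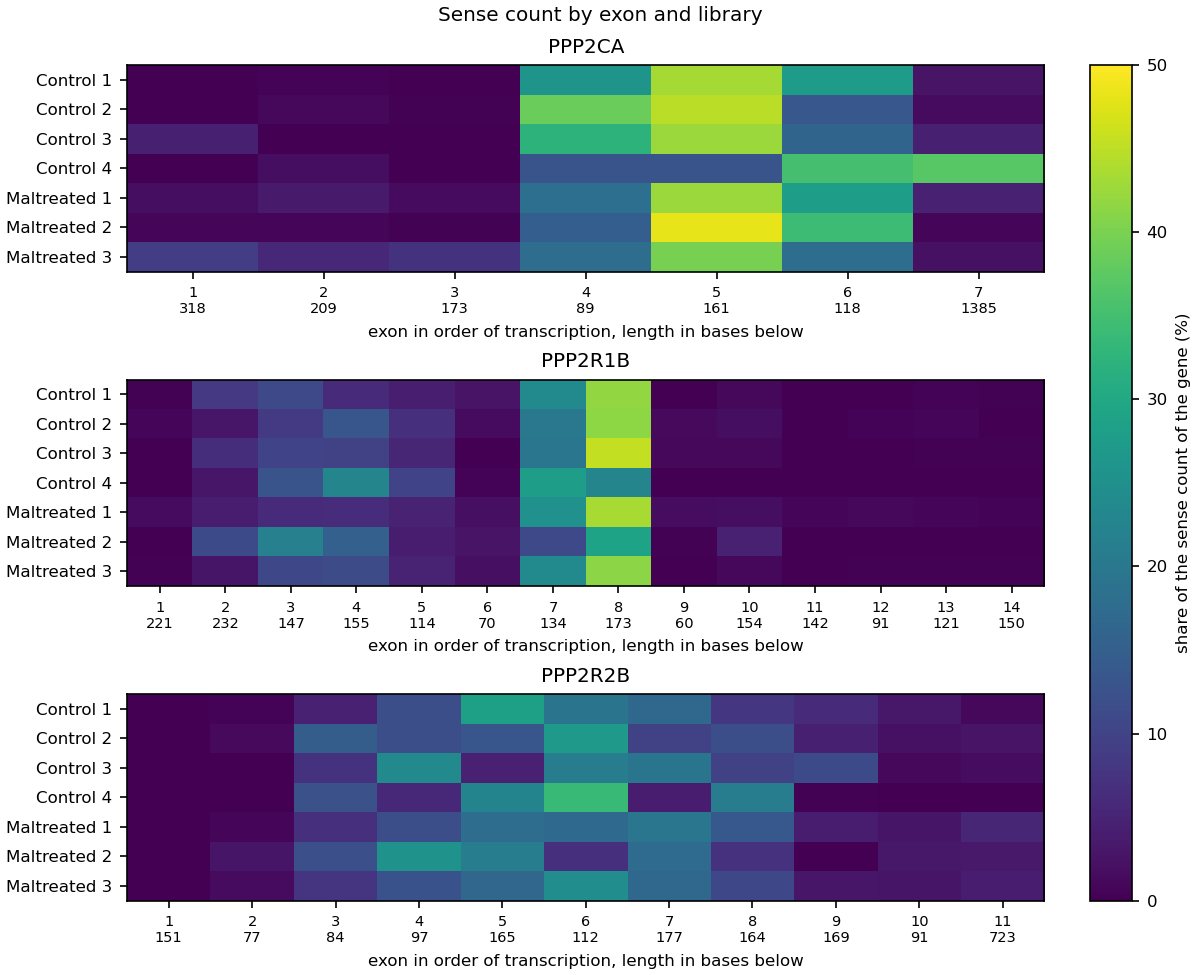
Share of a gene's sense count (colour, %) on each exon (x axis, order of transcription, exon length in bases) in each library (rows) for PPP2CA, PPP2R1B and PPP2R2B. Exon 5 of PPP2CA and exon 8 of PPP2R1B are the brightest in 6 of 7 libraries, and Control 4 departs from them in both genes.

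PPP2R1B, a scaffold subunit, was the PP2A gene with the highest median level per exon length over the 7 libraries. It lies on the minus strand of chromosome 11 (103836003 to 103876305) and had 938, 592, 555 and 803 counts across Control 1 to 4 and 2291, 588 and 856 across Maltreated 1 to 3. In CPM these are 100.1, 107, 94.8 and 149.6 in Control and 76.7, 98.4 and 74.3 in Maltreated libraries. Maltreated 2 lay between Control 3 and Control 1, so the groups overlapped, while Maltreated 1 and 3 lay below every Control library. The means were 113 ± 25.0 CPM (SD, n = 4) and 83.1 ± 13.2 CPM (SD, n = 3), and the log2 fold change of PPP2R1B came to -0.44 ± 0.32 (SE).

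The count of PPP2R1B, too, was concentrated on a short stretch. Exons 7 and 8 of 14, together 307 bases or 15.6% of the exon length, held 40.0 to 68.7% of its sense counts, with a median of 65.0%. Exon 8 (173 bases) was the most counted exon in 6 of 7 libraries, with 28.9 to 45.4% of the count, and in Control 4 it was exon 7 with 27.8% (95% Wilson interval 24.8 to 30.97%). The exons downstream of exon 8 had few reads: exon 14 had 3, 1, 2 and 0 counts across Control 1 to 4 and 12, 1 and 3 across Maltreated 1 to 3. In exon 8 itself the counts were 393, 246, 252 and 183 in Control and 995, 170 and 354 in Maltreated libraries.

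PPP2R1A, the scaffold subunit that predominates in most tissues, lies on the plus strand of chromosome 19 (46906236 to 46943540) and was counted little. It had 12, 46, 30 and 34 sense counts across Control 1 to 4 and 118, 0 and 276 across Maltreated 1 to 3. In CPM these are 1.28, 8.34, 5.12 and 6.33 in Control and 3.95, 0 and 24.0 in Maltreated libraries. The count of 0 in Maltreated 2 allows a level of up to 0.502 CPM, for counting error only. Maltreated 3 was the highest and Maltreated 2 the lowest of the 7 libraries. The log2 fold change of PPP2R1A was 0.82 ± 1.41 (SE), and -1.39 without Maltreated 3, the library with the most leukocyte RNA. Whether leukocyte RNA adds to PPP2R1A in that library was not tested. In Maltreated 3 the counts were spread over the gene, with 7 to 29 counts on each of its 15 exons, and the most counted exon held 10.5% (95% Wilson interval 7.42 to 14.7%). The interval takes each count as a separate read, and how reads spanning several exons were counted is not stated. With each exon count reduced by the lower count of its neighbouring exons, the log2 fold change of PPP2R1A was 0.023 ± 1.30 (SE). PPP2R1A and PPP2R1B share 11 exons of equal length in the same order. Exon 10 of PPP2R1A, which matches exon 8 of PPP2R1B in length, had 5, 1, 2 and 17 counts in Control and 7, 0 and 11 in Maltreated libraries.

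Among the B55 genes PPP2R2B had the most even counts, at 40.4 to 112 CPM in the 7 libraries. It lies on the minus strand of chromosome 5 (144407312 to 144897004) and had 879, 223, 428 and 601 counts across Control 1 to 4 and 2514, 416 and 745 across Maltreated 1 to 3. In CPM these are 93.8, 40.4, 73.1 and 112 in Control and 84.2, 69.6 and 64.7 in Maltreated libraries, with all Maltreated values inside the Control range. The means were 79.8 ± 30.7 CPM (SD, n = 4) and 72.8 ± 10.2 CPM (SD, n = 3), and the log2 fold change was -0.13 ± 0.40 (SE). The counts were spread over the middle of the gene: exons 4 to 8 of 11, with 35.6% of the exon length, held 74.4 to 87.0% of the count. The most counted exon in a library held 19.6 to 33.8% and was exon 4, 5, 6 or 7. Exon 1 had a count of 0 in all 7 libraries.

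PPP2R2D, a subunit of the B55 phosphatases held back by the ENSA and ARPP19 proteins in mitosis, lies on the plus strand of chromosome 10 (127899444 to 127949625). It had 207, 142, 148 and 581 counts across Control 1 to 4 and 440, 120 and 196 across Maltreated 1 to 3. In CPM these are 22.1, 25.7, 25.3 and 108 in Control and 14.7, 20.07 and 17.01 in Maltreated libraries. Every Maltreated library was below every Control library, which was so for 1 of the 8 PP2A genes and for 1.49% of all genes tested. With its most counted exon, exon 8, left out, an alternative chosen after the exon counts were seen, the groups of PPP2R2D overlapped. Maltreated 2 and 3 then stood at 16.1 and 14.1 CPM, above Control 1 at 13.1 CPM, and the log2 fold change was -0.92. The gap between the groups ran from 20.07 CPM in Maltreated 2 to 22.1 CPM in Control 1, so it was small beside the spread within the Control group. The means were 45.3 ± 42.0 CPM (SD, n = 4) and 17.3 ± 2.68 CPM (SD, n = 3), and the log2 fold change was -1.39 ± 0.67 (SE), which did not pass the test. Leaving out Control 4, the library with 108 CPM and with the most leukocyte RNA of its group, gave PPP2R2D a log2 fold change of -0.51. The part of leukocyte RNA was not tested. In Control 4 all 581 counts lay on exons 7 to 9, with 136, 315 and 130, and exons 1 to 6 had 0, whereas in Maltreated 3 exons 1 to 6 had 4, 0, 15, 2, 12 and 21.

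PPP2R2A, the broadly expressed B55 subunit, lies on the plus strand of chromosome 8 (26226617 to 26308840). It was counted little, with 28, 30, 66 and 65 counts across Control 1 to 4 and 177, 5 and 84 across Maltreated 1 to 3. In CPM these are 2.99, 5.44, 11.3 and 12.1 in Control and 5.93, 0.836 and 7.29 in Maltreated libraries. The groups overlapped, and the log2 fold change was -0.75 ± 1.03 (SE). In the 2 Control libraries with the highest level a single exon held most of the count. Exon 3 had 44 of 66 counts in Control 3 (66.7%, 95% Wilson interval 54.7 to 76.8%), and the last exon had 56 of 65 in Control 4 (86.2%, 75.7 to 92.5%). Without the last exon the level of PPP2R2A in Control 4 was 1.68 CPM.

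PPP2R2C lies on the minus strand of chromosome 4 (6516452 to 6608939). It had 197, 5065, 2084 and 546 sense counts across Control 1 to 4 and 784, 152 and 285 across Maltreated 1 to 3. In CPM these are 21.02, 918, 356 and 102 in Control and 26.3, 25.4 and 24.7 in Maltreated libraries. The 3 Maltreated libraries were close to one another, Control 1 lay below them, and Control 2 to 4 lay above them by very different amounts. The lower Maltreated mean, for which the gene was picked, was 25.5 ± 0.761 CPM (SD, n = 3) against 349 ± 405 CPM (SD, n = 4), a log2 fold change of -3.78 ± 1.02 (SE).

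The high counts of PPP2R2C in Control 2 and Control 3 lay on 1 of its 10 exons. This is exon 6, of 177 bases at positions 6568025 to 6568201 of chromosome 4. It had 6, 2436, 988 and 33 counts across Control 1 to 4 and 79, 26 and 41 across Maltreated 1 to 3. The level of exon 6 was 441 CPM in Control 2 and 169 CPM in Control 3, and between 0.640 and 6.15 CPM in the other 5 libraries. Counting each exon once, exon 6 held 96.0% of the PPP2R2C count in Control 2 (95% Wilson interval 95.2 to 96.7%) and 94.5% in Control 3 (93.0 to 95.8%). Across Maltreated 1 to 3 it held 18.5, 34.2 and 27.7%. These intervals hold for counting error alone, because PCR copies of 1 molecule could not be told from separate molecules. For scale, the most counted exon held a smaller share than this in 99.4% of 7257 genes in Control 2 and in 97.0% of 6845 genes in Control 3, among tested genes with at least 5 exons and 20 counts.

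**Figure D3:**
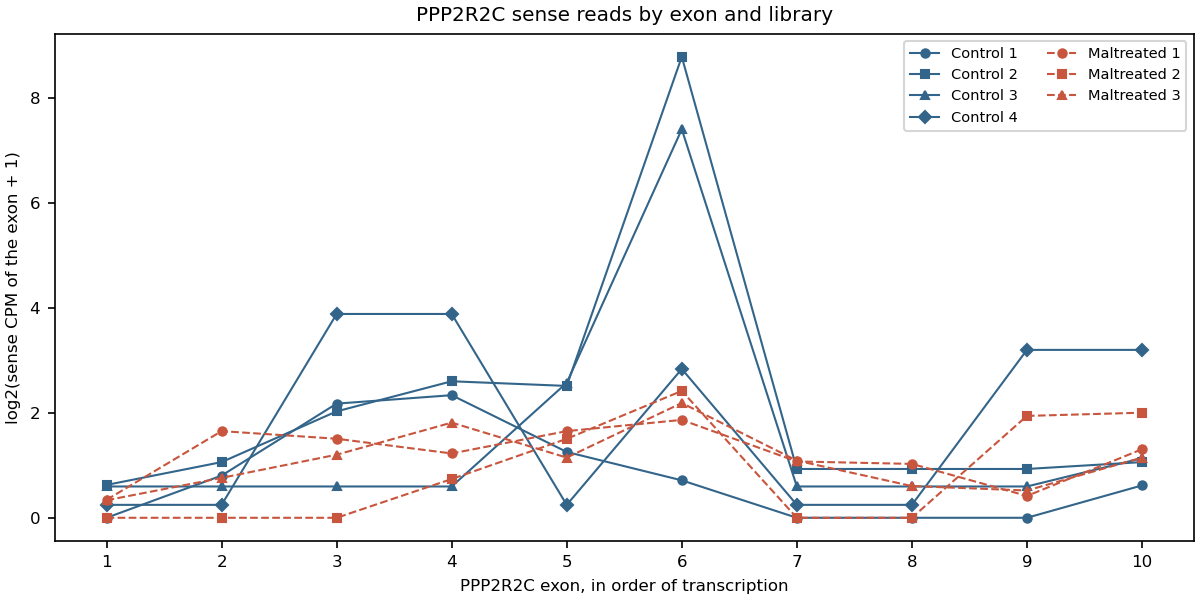
Level of each PPP2R2C exon (y axis, log2 of sense CPM + 1) along the gene (x axis, exon 1 to 10 in order of transcription), 1 line per library, Control in blue and Maltreated in red. Control 2 and Control 3 stand apart at exon 6 with 441 and 169 CPM, and at the other 9 exons no library exceeds 13.8 CPM.

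The exons beside it did not share these counts. In Control 2 exons 5 and 7 had 26 and 5 counts beside 2436 on exon 6, and in Control 3 they had 29 and 3 beside 988. In addition, 8 of the 10 exons of PPP2R2C, exon 6 among them, are entered 2 times in the deposited exon files, and the deposited gene count adds both entries. With each exon counted once the log2 fold change of PPP2R2C was -3.71. With exon 6 left out of the deposited count, in which 7 of the other exons are still entered 2 times, PPP2R2C stood at 19.7, 34.98, 18.4 and 89.4 CPM across Control 1 to 4 and at 21.0, 16.7 and 17.6 CPM across Maltreated 1 to 3. Its means were then 40.6 ± 33.4 CPM (SD, n = 4) and 18.4 ± 2.24 CPM (SD, n = 3). The log2 fold change of PPP2R2C without exon 6 was -1.14, against -3.78 with it, and this alternative too was chosen after the exon counts were seen. The remaining high library was Control 4, whose counts were arranged in blocks of equal numbers. It had 74 counts on each of exons 3 and 4, 44 on each of exons 9 and 10, and 1 on each of exons 1, 2, 5, 7 and 8. Control 2 also had the highest level of epithelial and accessory gland markers, and their part in the PPP2R2C count was not tested. In Control 3, with 169 CPM of exon 6, these markers stood at 32.6 CPM.

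The same exon was examined in the other B55 genes. PPP2R2C shares 7 exons of equal length in the same order with PPP2R2A, 7 with PPP2R2B and 5 with PPP2R2D, and the exon of 177 bases occurs in all 4. In PPP2R2B this exon had 149, 22, 83 and 24 counts across Control 1 to 4 and 492, 73 and 125 across Maltreated 1 to 3. In PPP2R2A it had 9, 3, 0 and 1 counts in Control and 12, 0 and 5 in Maltreated libraries. In PPP2R2D it had 30, 6, 7 and 0 counts in Control and 38, 23 and 21 in Maltreated libraries. Control 2 and Control 3 were thus the highest of the 7 libraries for this exon in PPP2R2C but in none of the other 3 genes.

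**Figure D4:**
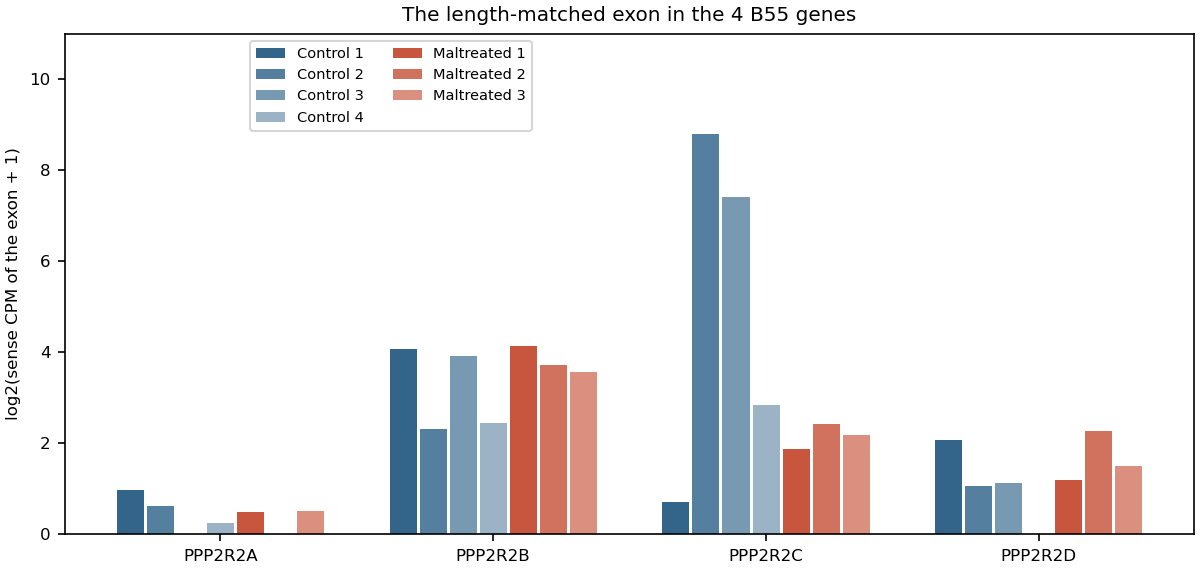
Level of the exon of 177 bases (bars, log2 of sense CPM + 1) in the 4 B55 genes, 1 bar per library, Control in blue and Maltreated in red, shaded by replicate. The bars of Control 2 and Control 3 stand out in PPP2R2C, with 441 and 169 CPM, and not in PPP2R2A, PPP2R2B or PPP2R2D.

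To compare levels between the genes, counts on exons counted once were divided by exon length and given as CPM per kilobase. This length includes last exons of unlike size, with 1385 of 2453 bases in PPP2CA, 723 of 2010 in PPP2R2B and 150 of 1964 in PPP2R1B. The order and shares below depend on it, and whether they hold without the last exons was not tested. Over the 7 libraries PPP2R1B had the highest median at 50.1 CPM per kilobase (range 37.8 to 76.2), followed by PPP2R2B at 36.4 (20.1 to 55.7) and PPP2CA at 19.1 (4.10 to 19.6). Then came PPP2R2D at 10.7 (7.17 to 52.6), PPP2CB at 3.63 (0.240 to 5.77) and PPP2R2C at 3.37 (2.56 to 108). The lowest medians were those of PPP2R1A at 2.26 (0 to 10.6) and PPP2R2A at 1.58 (0.223 to 3.23). Neighbours in this order overlapped in range except PPP2R2B with PPP2CA and PPP2R2D with PPP2CB. Within each family 1 gene made up most of the summed CPM per kilobase in most libraries. PPP2R1B made up 78.2 to 100% of the scaffold level, lowest in Maltreated 3, and PPP2CA made up 62.4 to 94.5% of the catalytic level, lowest in Control 1. PPP2R2B made up 70.8 to 77.6% of the B55 level in Control 1 and the 3 Maltreated libraries, 45.1% in Control 4 and 38.8% in Control 3. In Control 2 its share was 14.1%, beside 76.0% of PPP2R2C.

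**Figure D5:**
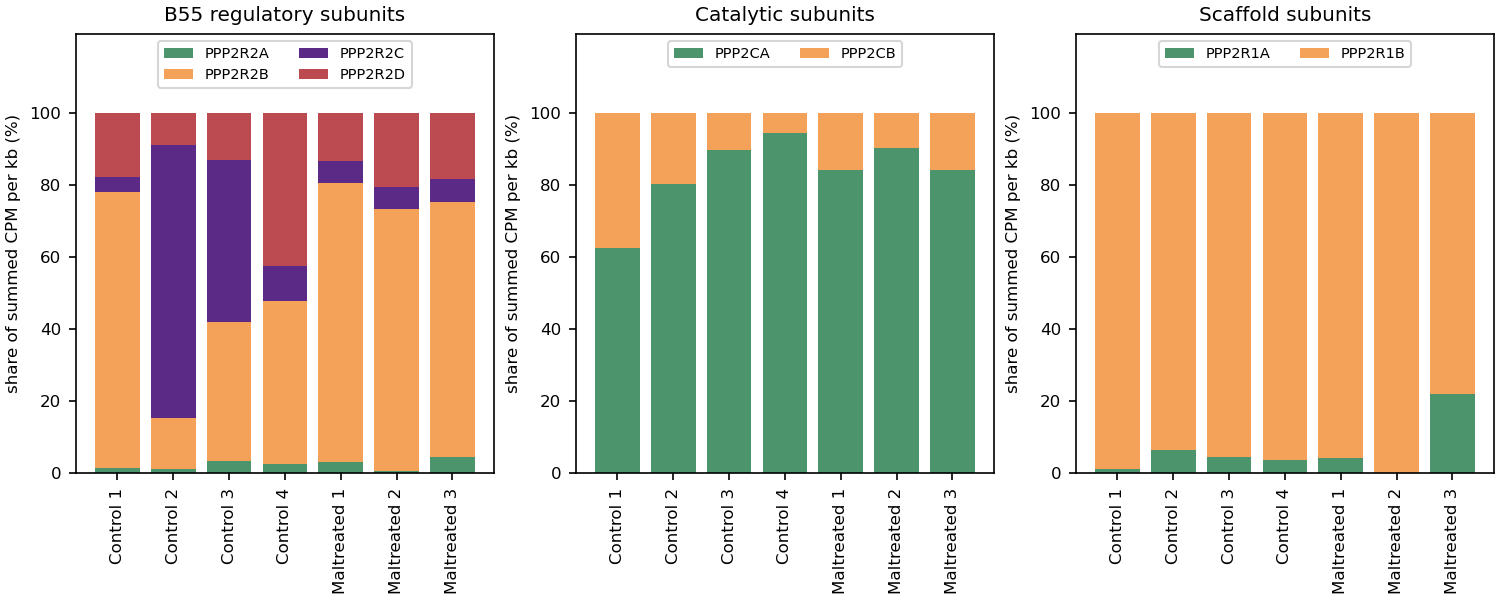
Share of each gene in the summed CPM per kilobase of its subunit family (y axis, %) in the 7 libraries (x axis), for the B55, catalytic and scaffold genes. PPP2R2B, PPP2CA and PPP2R1B are the largest parts in most libraries, and PPP2R2C takes 76.0% of the B55 level in Control 2 and 44.8% in Control 3.

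Antisense reads, on the strand opposite to a gene, were few for 7 of the 8 genes, with 21 to 68 counts over all libraries. PPP2R1A was the exception and the only PP2A gene with enough antisense counts to be tested. It had 0, 75, 0 and 150 antisense counts across Control 1 to 4 and 33, 0 and 91 across Maltreated 1 to 3. In Control 2 and Control 4 its antisense count was thus above its sense count. Both are sums over exons, and how reads spanning several exons were counted is not stated, so the numbers of reads were not compared. In Control 2 each of the 15 exons of PPP2R1A had the same antisense count of 5. In Maltreated 3, 14 of them had 6, and in Control 4, 11 had 6 and 1 had 63. Its antisense log2 fold change was -1.19 ± 2.14 (SE; edgeR adjusted p = 0.998), with -3.66 when Maltreated 3 was left out and -0.35 when Control 4 was left out, and 0% of the 4382 genes tested for antisense reads passed. The highest PPP2R2C antisense count was 26, in Maltreated 1.

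The covered fraction of a gene, as deposited, did not always follow its count. PPP2R2C was listed as 100% covered on the sense strand in Control 2, 3 and 4 and in Maltreated 1 and 3, with a lowest exon count of 3, 3, 1, 8 and 3 in these libraries. It was listed as 15.1% covered in Control 1 and 7.51% in Maltreated 2, the libraries with the lowest counts of the gene as a whole. The covered fraction did not go with the count of exon 10, which has 3062 of its 4250 exon bases. Exon 10 had 18 counts in Maltreated 2, but 6 in Control 2 and 7 in Control 3, both listed as 100% covered. PPP2R2A was listed as 100% covered in Control 4 with 65 counts, where 9 of its 10 exons had 1 count each. With 66 counts in Control 3 it was listed as 13.4% covered. Over the 8 genes there were 12 such fully covered cases in sense and 7 in antisense, in 5 genes each, with a lowest exon count of 1 to 8 in sense and 1 to 6 in antisense.

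The other regulatory subunits and regulators of PP2A, which include the B56 family, the striatins, the methylesterase PPME1 and the inhibitors ENSA and ARPP19, had 20 tested genes. Of these 0 passed the test in either direction, 9 had a positive and 11 a negative log2 fold change, and the median was -0.06, beside -0.02 over all genes tested. The members of this list with the smallest unadjusted p were ENSA, the B56 subunit PPP2R5D and PPP2R4, the older symbol of the PP2A activator PTPA. ENSA stood at 8.64, 13.8, 10.4 and 2.80 CPM across Control 1 to 4 and at 14.0, 29.6 and 27.3 CPM across Maltreated 1 to 3, with a log2 fold change of 1.40 ± 0.72 (SE). Its Maltreated libraries were all above its Control libraries, as in 2.1% of all genes tested. PPP2R5D had 1.62 ± 0.90 (SE), and 3.03 without Control 3, where it stood at 34.2 CPM beside at most 5.97 CPM in the other Control libraries. The value of PPP2R5D was 1.03 without Maltreated 2, and 0.61 ± 0.55 (SE) with sense plus antisense counts. PPP2R4 had -1.21 ± 0.70 (SE), and -0.40 without Control 4, where it stood at 96.5 CPM.

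Partners of the striatins in the STRIPAK complex, a PP2A assembly with kinases, had 10 tested genes, of which 9 had a positive and 1 a negative log2 fold change. Over all genes tested 48.7% had a positive value. The median of the list was 0.29, beside -0.02 over all genes tested, and 0 passed in either direction. The 3 with the smallest unadjusted p were PDCD10 with 0.37 ± 0.32 (SE), SLMAP with 0.27 ± 0.27 and the kinase gene STK24 with 0.35 ± 0.39. SLMAP was abundant, at 634 to 784 CPM in Control and 640 to 1227 CPM in Maltreated libraries, and its log2 fold change was -0.11 without Maltreated 2, the library with 1227 CPM.

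Other serine/threonine phosphatase genes had 21 tested members, with 8 positive and 13 negative log2 fold changes, a median of -0.08, beside -0.02 over all genes tested, and 0 that passed. The 3 with the smallest unadjusted p were PPP3R1, PPP3R2 and PPP3CA, and 1 of the 21 had an unadjusted p under 0.05. PPP3R1, a regulatory subunit of the phosphatase calcineurin, stood at 0.960, 1.45, 0 and 0 CPM across Control 1 to 4 and at 3.18, 10.5 and 9.46 CPM across Maltreated 1 to 3. PPP3R2, the calcineurin regulatory subunit of the testis, stood at 1.07, 0.544, 0.512 and 0.186 CPM in Control and at 1.84, 4.52 and 2.26 CPM in Maltreated libraries. In 2 of the 21 genes, these 2, all 3 Maltreated libraries were above all 4 Control libraries, as in 2.1% of all genes tested. Both genes passed the filter on low counts through their Maltreated libraries alone. Their lack of overlap was thus largely set by the filter and does not count as support for a difference. Their levels were low, with log2 fold changes of 3.64 ± 1.49 and 2.26 ± 1.20 (SE). The calcineurin catalytic subunit PPP3CA had 0.57 ± 0.57 (SE). Leaving out each library in turn gave it 0.22, without Maltreated 1, to 1.30, without Control 1.

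The genes nearest in profile to PPP2R2C were found by the root mean square difference of centred log2 CPM over the 7 libraries, a description that shares the libraries and their depth. They were the potassium channel gene KCNK3 with a difference of 0.712, PDE6A with 0.814, GTPBP8 with 0.833, SLC25A28 with 0.891 and USP21 with 0.905. The median over all 10711 other tested genes was 2.27. KCNK3 had 161, 2387, 724 and 221 counts across Control 1 to 4 and 310, 228 and 234 across Maltreated 1 to 3, and its most counted exon of 2 held 98.7 to 100% of them. SLC25A28, a mitochondrial carrier gene, had 507 counts in Control 2, of which its most counted exon of 4 held 95.5%. Such a share of SLC25A28 was not limited to that library, being 98.7% of 76 counts in Maltreated 2 and 44.7 to 86.5% in the other 5. The other 3 had at most 76 counts in a library.

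Of the genes beside PPP2R2C on chromosome 4, none was highest in Control 2, and MRFAP1 was highest in Control 3, at 66.4 CPM beside 8.94 to 41.1 CPM in the other 6 libraries. The nearest on each side are JAKMIP1 and WFS1 at lower and MAN2B2 and MRFAP1 at higher positions, none of which overlaps it. In Control 2, where PPP2R2C had 5065 sense counts, they had 9, 14, 5 and 133. WFS1, which ends at position 6504228 and is the closest, had 6, 14, 12 and 58 counts across Control 1 to 4 and 216, 0 and 292 across Maltreated 1 to 3. MRFAP1 had 131, 133, 389 and 48 in Control and 608, 243 and 474 in Maltreated libraries.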

How the data were processed

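STAR, featureCounts and bedtools were used, per the submitters' processing notes, with no version, role or order, and no source used here names the genome build. The deposited exon files hold the read count of each exon entry and its covered fraction, without normalisation, in a forward and a reverse file per library. The deposited gene table sums these counts per gene as sense and antisense reads, which was checked and held for all 18282 genes used. How reads spanning several exons were counted is not stated in the labels. The 2 genes listed on both strands, RTN3 and ZC3HAV1, were left out. Positions are 1-based.

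The main test was that of edgeR 4.0.16 under R 4.3.3 (TMM, filterByExpr with minimum count 10 and minimum total 15, quasi-likelihood F test on the group, 5 residual degrees of freedom). It used Benjamini-Hochberg adjustment across every gene tested and a threshold of 0.05, and was run on simulated data. The sense counts had a biological coefficient of variation, a measure of spread between libraries, of 0.858. At a simulated spread near this value the test called few of the changed genes. A gene that did not pass is therefore not shown to be unchanged. CPM use TMM-scaled library sizes. DESeq2 1.42.0 and other settings served as alternatives. A floor of 3 counts was used for a count of 0.

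The members and lists were chosen with earlier results of these data known. The rule names the 8 members, the 3 tested genes of each list with the smallest unadjusted p, the 5 genes nearest in profile to PPP2R2C and the 2 nearest genes on each side of it. Exon groups were picked after their counts were seen.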

Additional observations from a re-analysis of the deposited data

Results flagged for a closer look

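In 5 of 15 sets of 4 Control libraries, 1 library stood apart from the other 3 by more than the 95% critical value of Dixon's test. Chance alone reaches that value in about 1 in 20 sets of normally distributed values. Whether these levels are so distributed was not tested, so 5 of 15 is not shown to be more than chance gives. PPP2R2D had 108 sense CPM in Control 4, beside at most 25.7 CPM in the other Control libraries. The other 4 were antisense levels, scaled to 1000000 antisense counts, and rest on few reads. In 2 of these, PPP2R2A and PPP2CB, the other 3 Control libraries had a count of 0, so any count in the 1 library passes the critical value and the rate of 1 in 20 does not apply. PPP2R2A stood at 7.98 in Control 1 (6 counts) and PPP2CA at 40.4 in Control 4 (28 counts). PPP2CB stood at 54.6 (28 counts) and PPP2R1B at 56.5 (29 counts), both in Control 3.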

How the results depend on the processing

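In edgeR 0 genes passed under every setting for sense counts, with 191 at an unadjusted p under 0.05 as reported and 149 to 784 under the alternatives. The DESeq2 Wald test called 3 sense genes, among them PPP2R2C with exon 6 included, which was chosen for this difference, so its call is no support for it. For antisense counts edgeR called 0 genes as reported (110 at an unadjusted p under 0.05), DESeq2 called 16, and edgeR without a filter called 24. Of 284 log2 fold changes under alternatives, over 18 results, 267 kept their direction and 17 did not. Same-numbered libraries share only a number: the correlations of their deviations from the group means were 0.07, 0.01 and -0.02, and only Maltreated 1 correlated best with the Control library of its own number. With the replicate block PPP2R2B had 0.15, PPP2CB -0.21, PPP2R2C -3.15 and antisense PPP2R1A 4.05, and 0 genes passed. With Control 4 and Maltreated 3 left out together, PPP2R2B had 0.14, PPP2CB -0.49, PPP2R1A -1.28 and PPP2R2C -4.07. With sense plus antisense counts, PPP2CB had -0.30 and PPP2R1A -0.26. With the most counted exon of each gene left out, PPP2R2B had 0.045 and PPP2CB -0.20. Leaving out each library in turn gave -0.35 to 0.059 for PPP2R2B, -0.37 to 0.54 for PPP2CB, -1.39 to 1.39 for PPP2R1A and -0.11 to 0.43 for SLMAP. The same gave -4.17 to -2.64 for PPP2R2C, the upper value without Control 2. The cause of these changes was not tested. PPP2R1A, PPP2CB and PPP2R2A have few counts in most libraries, and their log2 fold changes have SEs of 1.41, 1.14 and 1.03. Whether depth sets these SEs was not tested, and PPP2R2C, with more counts, has an SE of 1.02.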
